A study of Mus musculus with 12 samples.

Results

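The genes described here encode the matrix metalloproteinases (MMPs), the transmembrane ADAM proteases, the secreted ADAMTS proteases and their tissue inhibitors, the TIMPs. Members were chosen by name alone, as the protein-coding genes of the GENCODE M21 mouse annotation whose symbols are Mmp, Adam, Adamts or Timp followed by a number. The rule found 78 members among the 54392 gene rows of the deposited table, with 33 ADAM, 19 ADAMTS, 22 MMP and 4 TIMP genes. Total RNA was sequenced from NIH-3T3 cells, which are immortalised mouse embryonic fibroblasts, with 3 libraries from each of KO1, KO2 and KO3, lines edited at Crls1, and 3 from WT cells. Crls1 encodes cardiolipin synthase, which makes the cardiolipin of the inner mitochondrial membrane. To make the KO lines, cells received a plasmid with Cas9 and a guide RNA against Crls1 and were sorted singly by GFP, so each line descends from 1 cell, and differences between clones come with the comparison. WT cells have the genotype Crls1WT in the labels, which do not state whether they were transfected or sorted. All 4 groups grew in the same medium, with high glucose, serum, pyruvate and uridine.

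MMPs are zinc-dependent enzymes that cut collagens and other proteins of the extracellular matrix, and most are made as inactive proenzymes. ADAMs sit in the plasma membrane and release the outer parts of other membrane proteins, which is called shedding. ADAMTS proteases are secreted, and several cut the large matrix proteoglycans or trim procollagens. TIMPs bind the active sites of these enzymes. Fibroblasts are a main source of both the proteases and the inhibitors in connective tissue, so the balance between them helps to set how fast matrix is turned over.

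The libraries held 32929242 to 42211807 reads. Log2 values correlated at r = 0.981 to 0.989 between libraries of a group, 0.942 to 0.950 between clones and 0.918 to 0.941 between a clone and WT (over genes, which are not replicates). The WT library that differed most was replicate 1, at a chi-square of 53.3 and 56.5 for each degree of freedom from the other WT libraries, which differed by 17.5 from each other. The labels do not state whether the libraries of a group came from separate cultures, so p-values measure the spread between these libraries, which may be technical. Crls1 averaged 210.4 ± 2.67 normalized counts in KO1, 349 ± 21.1 in KO2 and 381 ± 23.9 in KO3, against 815 ± 68.4 in WT (SD, n = 3 each), so its RNA was lower but present in every clone. Of 12 fibroblast markers, 10 reached 10 normalized counts in every library of each group, while Lum was at 0 and Dcn was near 0. Their levels also moved between groups. Col3a1 averaged 7939, 884 and 3664 in KO1, KO2 and KO3, against 148 in WT. Pdgfra averaged 9432, 26299 and 7582 in KO1, KO2 and KO3, against 7355 in WT. Col1a2 and Pdgfrb averaged lower in every clone than in WT. Markers of other cell types moved between groups too. The 7 haematopoietic markers summed to 181 to 274.4 in KO1, 187.5 to 236.5 in KO2 and 116.7 to 131 in KO3, against 541.5 to 716.2 in WT, mostly Csf1r. Ptprc, which defines that lineage, averaged 32.3 in KO1 and 0.345 in WT. The 7 epithelial markers summed to 361.7 to 382.6 in KO1, 211.8 to 235.6 in KO2 and 326 to 341 in KO3, against 97.61 to 110.8 in WT, and Epcam was at 0 in KO1, KO2 and WT. Among them Cdh1 averaged 349.7, 185 and 307 in KO1, KO2 and KO3, against 17.8 in WT, while Krt8 averaged 5.26, 9.59 and 4.41 in KO1, KO2 and KO3, against 84.8 in WT. The 5 endothelial markers summed to 269.7 to 330.3 in KO1, 133.2 to 208.4 in KO2 and 120.2 to 176.9 in KO3, against 78.79 to 109.3 in WT. The 5 skeletal muscle markers, mostly Des, summed to 155.2 to 208.5 in KO1, 203.2 to 252.8 in KO2 and 158.6 to 164.1 in KO3, against 82.32 to 111.8 in WT, with Myod1 at 0. The part of these markers in the results below was not tested, and in bulk RNA fewer cells of a type and less RNA per cell cannot be told apart.

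NIH-3T3 cells expressed a restricted set of these genes. A gene was tested where at least 3 of the 12 libraries had 10 or more normalized counts, and 35 of the 78 members passed, namely 13 ADAM, 11 ADAMTS, 7 MMP and 4 TIMP genes. Adamts9 and Mmp28 passed with every WT library under 10, so their being higher in a clone was in part fixed by this filter. Of the 43 that did not pass, 22 were at 0 in all 12 libraries, as were 27258 rows of the whole table. These were Adam1b, Adam6a, Adam6b, Adam7, Adam18, Adam20, Adam24, Adam25, Adam26a, Adam26b, Adam29, Adam30, Adam34, Adam39, Adamts19, Mmp1b, Mmp3, Mmp7, Mmp8, Mmp10, Mmp16 and Mmp20. The other 21 had some reads but no library above 22.9, which was reached by Adam32. They were Adam2, Adam3, Adam21, Adam22, Adam28, Adam32, Adamts3, Adamts8, Adamts13, Adamts16, Adamts17, Adamts18, Adamts20, Mmp12, Mmp13, Mmp15, Mmp17, Mmp21, Mmp24, Mmp25 and Mmp27. Many of the ADAMs in these lists are known from testis and sperm, among them Adam2 and Adam3, which act in sperm-egg interaction.

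Many silent members lay in 2 regions of the genome. The MMP cluster of chromosome 9 (GRCm38 chr9:7272514-7699585) holds 9 members, including the collagenases Mmp13, Mmp8 and Mmp1b, the stromelysins Mmp3 and Mmp10 and the macrophage elastase Mmp12. Of these, 6 were at 0 in every library and no library value of any of the 9 exceeded 4.52 normalized counts. A group of 8 ADAM genes on chromosome 8 (chr8:40675077-55906948) was at 0 in every library, while a second group on that chromosome (chr8:24602246-25016927) held the strongly expressed Adam9 and the weakly expressed Adam5 beside Adam18, Adam3 and Adam32, none of which passed.

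RefSeq promoter windows (GRCm38.p6, from 250 bases before to 50 after the start site) were at hand for 48 of the 78 members, and 4 of them are printed to set silent cluster genes beside expressed ones. Mmp3 (chr9:7445572-7445871, plus strand) and Mmp13 (chr9:7272264-7272563, plus strand) belong to the silent cluster. Mmp14 (chr14:54431348-54431647, plus strand) and Timp3 (chr10:86300162-86300461, plus strand) were among the most abundant members. Capitals mark matches to TGANTCA (the AP-1 element), TATAAA (the TATA box), GGGCGG (the GC box) or CCAAT (the CCAAT box) on either strand, and the letters run 5′ to 3′ on the gene's strand.
Mmp3: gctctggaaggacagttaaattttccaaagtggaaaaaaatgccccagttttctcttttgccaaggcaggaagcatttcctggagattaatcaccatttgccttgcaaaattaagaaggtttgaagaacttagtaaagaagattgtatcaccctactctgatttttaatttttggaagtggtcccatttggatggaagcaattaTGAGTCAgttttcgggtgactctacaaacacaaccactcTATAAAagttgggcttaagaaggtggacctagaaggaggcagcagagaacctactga
Mmp13: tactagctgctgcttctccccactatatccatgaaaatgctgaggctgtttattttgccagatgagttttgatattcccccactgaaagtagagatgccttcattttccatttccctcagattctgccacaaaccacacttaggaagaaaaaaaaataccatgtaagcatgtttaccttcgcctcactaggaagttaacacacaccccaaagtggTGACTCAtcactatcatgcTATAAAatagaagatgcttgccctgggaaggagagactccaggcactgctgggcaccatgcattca
Mmp14: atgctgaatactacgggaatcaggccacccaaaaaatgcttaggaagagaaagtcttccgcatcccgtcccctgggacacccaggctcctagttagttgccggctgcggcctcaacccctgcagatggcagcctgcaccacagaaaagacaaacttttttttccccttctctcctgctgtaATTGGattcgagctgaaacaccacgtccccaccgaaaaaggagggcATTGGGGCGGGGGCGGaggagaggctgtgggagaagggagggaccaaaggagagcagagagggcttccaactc
Timp3: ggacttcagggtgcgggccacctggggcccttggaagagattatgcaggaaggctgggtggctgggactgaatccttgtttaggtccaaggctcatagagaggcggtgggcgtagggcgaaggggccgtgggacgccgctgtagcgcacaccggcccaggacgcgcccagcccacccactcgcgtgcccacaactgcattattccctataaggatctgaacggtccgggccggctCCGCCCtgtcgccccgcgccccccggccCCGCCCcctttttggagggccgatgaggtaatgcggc
The Mmp3 window held an AP-1 match starting 46 bases before the start site and a TATA match, and the Mmp13 window held both too, with its AP-1 match 35 bases before. The Mmp14 window, at 56.0% G and C, and the Timp3 window, at 67.0%, held GC boxes and neither of those elements. In Mmp14 a CCAAT match shares 1 base with the first GC box. Among the 9 genes of the silent cluster, 7 had an AP-1 match, 8 a TATA match and 0 a GC box, and their windows had a median of 40.7% G and C with 1 CpG. Among the 20 other windowed genes that passed, 1 had an AP-1 match (Adam19), 1 a TATA match (Adamts1) and 16 a GC box, with a median of 63.7% G and C and 19 CpGs. Among the 19 windowed genes outside the cluster that did not pass, 4 had an AP-1 match, 4 a TATA match and 7 a GC box. Their windows had a median of 54.3% G and C. Most of these windowed genes, some of which had reads, thus lacked an AP-1 match, and most lacked a TATA match. Members without a window were not examined. Of all 32851 windows, 7.81% held an AP-1 match, 13.62% a TATA match, 35.66% a GC box and 37.41% a CCAAT box. A match describes these letters only.

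Each clone differed from WT in more than 20 of the members that passed, in both directions. Calls are adjusted p-values under 0.05 in limma on log2(value + 1), adjusted over all 15073 genes tested. In KO1, 17 members were higher and 8 lower than in WT, with 10 not called, where 52.3% of all genes tested were called, 26.9% higher and 25.4% lower. In KO2, 15 members were higher and 7 lower, with 13 not called, where 60.4% of all genes were called, 29.9% higher and 30.5% lower. In KO3, 12 members were higher and 13 lower, with 10 not called, where 54.1% of all genes were called, 26.8% higher and 27.3% lower. The shares of called members were 71.4%, 62.9% and 71.4% for KO1, KO2 and KO3, so a call against WT was common for members and for genes at large. Members that were called with at least a 2-fold change numbered 9 higher and 2 lower in KO1, 8 and 2 in KO2, and 8 and 3 in KO3, where 15.0%, 17.8% and 16.0% of all genes reached that size in either direction. The higher members counted here include Adamts9 and Mmp28 in KO1 and Mmp28 in KO3. For these the filter in part fixed the direction, as every WT library was under its limit. The median log2 difference of the members that passed was 0.48 in KO1, 0.31 in KO2 and -0.12 in KO3, and that of all genes 0.018, 0.004 and 0.0032. The 3 clones were set against the same WT libraries, so their differences share that side.

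**Figure D1:**
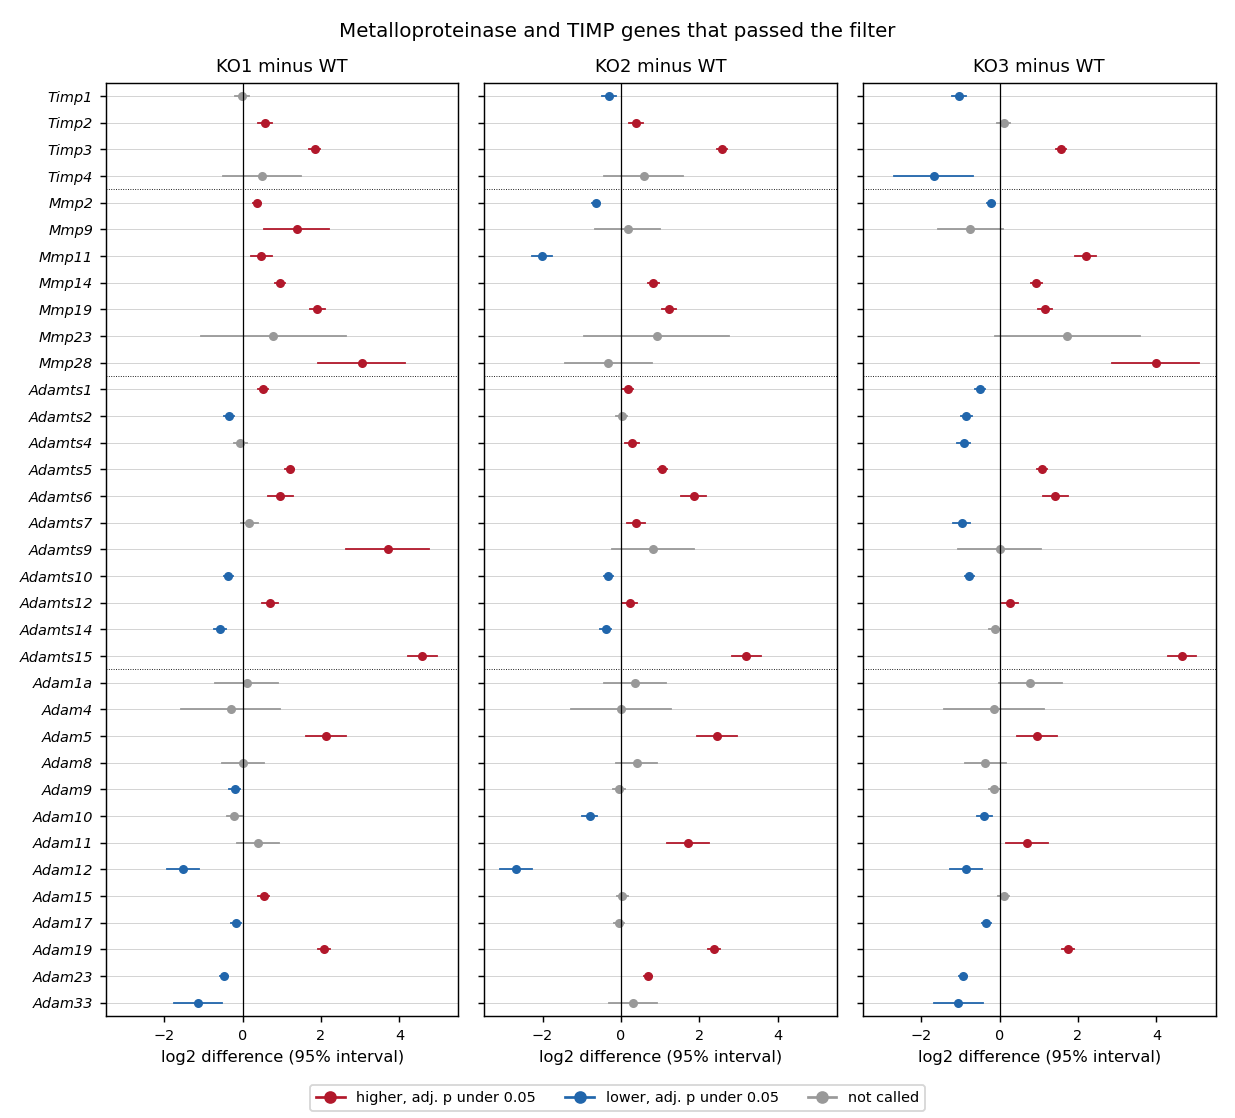
Log2 differences from WT (x axis) of the 35 members that passed the filter (y axis, grouped by family) in KO1, KO2 and KO3, with 95% confidence intervals from limma; red points were called higher, blue points lower and grey points were not called. Timp3, Mmp14, Mmp19, Adam19, Adamts5, Adamts6 and Adamts15 lay right of 0 in every clone, Adam12 lay left in every clone, and Mmp11 and Adam23 pointed different ways among the clones.

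Timp3 was the inhibitor RNA that was higher in every clone. It encodes the TIMP that binds to the matrix itself and also blocks ADAM17 and the aggrecan-cutting ADAMTS enzymes (chr10:86300372-86349506, plus strand; GRCm38 and GENCODE M21, as for all genes below). It had 31246, 30122 and 29878 normalized counts in KO1, 50844, 49611 and 51920 in KO2 and 26060, 25091 and 24395 in KO3, against 9399, 8243 and 7974 in WT. The lowest clone library, at 24395, was above the highest WT library, at 9399. Log2 differences from WT were 1.84 in KO1 (SE 0.06, adjusted p = 2.08e-10), 2.58 in KO2 (adjusted p = 1.52e-11) and 1.56 in KO3 (adjusted p = 7.04e-10). KO2 exceeded KO1 by 0.74 (adjusted p = 1.48e-06) on the log2 scale, and KO3 was lower than KO1 by a log2 difference of -0.27 (adjusted p = 0.00324). Timp3 shares 1733 exonic bases with Syn3 on the other strand, and Syn3 averaged 249, 142 and 91.6 normalized counts in KO1, KO2 and KO3, against 26.6 in WT. The sources used here do not give whether the counting used strand. Those Syn3 levels were under 1% of the Timp3 values in each group. They do not measure Syn3 reads that may have been counted as Timp3, and that part was not tested.

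Timp1, a secreted inhibitor induced by serum and cytokines (chrX:20870166-20874735, plus strand), went the other way in KO3. It had 5402, 5285 and 5158 normalized counts in KO1, 3806, 4386 and 4787 in KO2 and 2680, 2590 and 2536 in KO3, against 4792, 5676 and 5450 in WT. The KO3 libraries were the lowest of the 12 and did not overlap any other group. Log2 differences were -0.0032 in KO1 (SE 0.08, adjusted p = 0.977), -0.30 in KO2 (adjusted p = 0.00695) and -1.02 in KO3 (adjusted p = 4.06e-07); the KO2 call ended under quantile normalization (-0.16, adjusted p = 0.118) and with KO2 and WT fitted alone (adjusted p = 0.0532). The KO1 difference passed with the median of neighbouring genes on the chromosome subtracted (-0.30, adjusted p = 0.00549).

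Timp2, which both inhibits MMPs and helps Mmp14 to activate pro-Mmp2 (chr11:118301069-118355740, minus strand), was the most abundant TIMP. It had 44543, 44111 and 44263 normalized counts in KO1, 40567, 40277 and 35313 in KO2 and 31093, 32591 and 31994 in KO3, against 26109, 31311 and 32004 in WT. KO1 and KO2 stood above every WT library, and KO3 overlapped WT. Log2 differences were 0.58 in KO1 (SE 0.08, adjusted p = 5.71e-05), 0.38 in KO2 (adjusted p = 0.0011) and 0.10 in KO3 (adjusted p = 0.29), and the interval in KO3 ran from -0.068 to 0.27. Timp4, an inhibitor known best from heart and adipose tissue (chr6:115241892-115252205, minus strand), was scarce, with 38.5, 25.3 and 29.5 normalized counts in KO1, 50.4, 27.8 and 24.6 in KO2 and 2.07, 9.65 and 9.59 in KO3, against 29.4, 17.6 and 19.0 in WT. Only its KO3 value passed the threshold, with log2 differences of 0.50 in KO1 (SE 0.46, adjusted p = 0.391), 0.58 in KO2 (adjusted p = 0.296) and -1.68 in KO3 (adjusted p = 0.00843); without KO3 replicate 1 the KO3 difference was -1.08 (adjusted p = 0.0247). It shares 90 exonic bases with Syn2 on the other strand, which averaged 61.02, 53.04 and 55.3 normalized counts in KO1, KO2 and KO3, against 142 in WT.

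**Figure D2:**
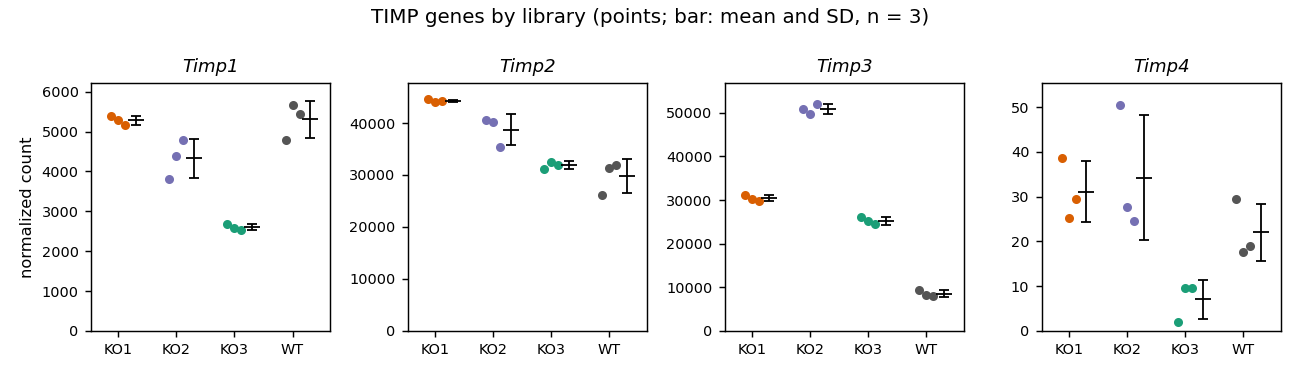
Normalized counts (y axis, linear from 0) of Timp1, Timp2, Timp3 and Timp4, with 1 point per library in KO1, KO2, KO3 and WT and the mean and SD beside them (n = 3). Timp3 in the clones lay at 24395 to 51920, above the 7974 to 9399 of WT, while Timp1 and Timp4 were lowest in KO3.

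Levels per kilobase of exon allow a rough comparison of the inhibitors with each other. The length used is the union of a gene's annotated exons, 888 bases for Timp1 and 8144 for Timp3, not that of the transcripts expressed. Ranks and shares between genes depend on that choice. Per kilobase, Timp2 averaged 11370 ± 56.2 in KO1, 9938 ± 758 in KO2 and 8186 ± 194 in KO3, against 7651 ± 827 in WT (SD, n = 3 each) and ranked first of the 78 members in every group. Timp3 averaged 3735 ± 89.6 in KO1, 6237 ± 142 in KO2 and 3092 ± 103 in KO3, against 1048 ± 93.0 in WT, and ranked 3, 2 and 2 in KO1, KO2 and KO3, against 8 in WT. Timp1 averaged 5948 ± 137 in KO1, 4872 ± 556 in KO2 and 2930 ± 81.8 in KO3, against 5975 ± 517 in WT. Timp3 averaged above Timp1 in KO2 and, with overlapping library ranges, in KO3, and below it in KO1 and WT. Timp3 made up 17.6% to 18.0% of the summed TIMP level per kilobase in KO1, 28.5% to 30.6% in KO2 and 21.3% to 22.5% in KO3, against 6.39% to 8.71% in WT. Timp1 made up 27.9% to 28.5% in KO1, 20.5% to 25.9% in KO2 and 20.3% to 21.3% in KO3, against 40.0% to 41.4% in WT. The clones thus had a larger share of Timp3 RNA and a smaller share of Timp1 RNA, with no overlap with WT. The sum of the 4 TIMPs per kilobase averaged 21060 ± 269 in KO1, 21050 ± 284 in KO2 and 14210 ± 150 in KO3, against 14680 ± 1230 in WT. That sum lay above every WT library in KO1 and KO2 and within the WT range in KO3. For the MMPs the sum averaged 4234 ± 71.5 in KO1, 2929 ± 115 in KO2 and 3798 ± 204 in KO3, against 2607 ± 20.4 in WT, and every clone library was above every WT library. The other protease families did not rise in every clone. The ADAM sum averaged 6855 in KO1, 7070 in KO2 and 6290 in KO3, against 7180 in WT. The ADAMTS sum averaged 5275 in KO1, 4944 in KO2 and 3493 in KO3, against 4229 in WT. For both, every KO3 library was below every WT library.

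**Figure D3:**
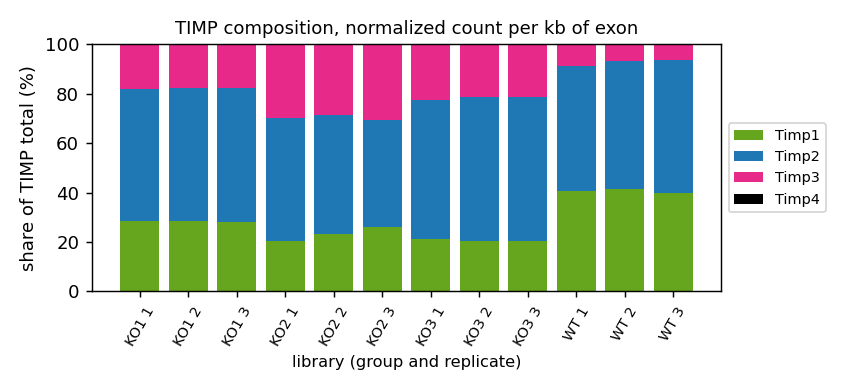
Share of the summed TIMP level per kilobase of exon (y axis, percent) held by Timp1, Timp2, Timp3 and Timp4 in each library, from KO1, KO2 and KO3 to WT. Timp3 held 17.6% to 30.6% in the clone libraries and at most 8.71% in WT, and Timp1 held at most 28.5% in the clones and at least 40.0% in WT; Timp4 is too small a share to be seen.

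Mmp14, the membrane-type collagenase that fibroblasts use to cut collagen at their surface (chr14:54431612-54445364, plus strand), was higher in every clone. It had 12134, 11507 and 12324 normalized counts in KO1, 11428, 10992 and 10330 in KO2 and 11731, 11083 and 12558 in KO3, against 6481, 6163 and 5831 in WT. The lowest of the 9 clone libraries, at 10330, was above the highest WT library, at 6481. Log2 differences were 0.96 in KO1 (SE 0.06, adjusted p = 7.01e-08), 0.83 in KO2 (adjusted p = 2.16e-07) and 0.94 in KO3 (adjusted p = 6.96e-08). Between the clones no difference passed, and the intervals of the log2 difference ran from -0.27 to -0.002 for KO2 minus KO1, -0.16 to 0.11 for KO3 minus KO1 and -0.023 to 0.24 for KO3 minus KO2.

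Mmp2, the gelatinase whose proenzyme Mmp14 activates (chr8:92827291-92853420, plus strand), differed in direction among the clones. It had 6078, 5958 and 5945 normalized counts in KO1, 3131, 2895 and 2974 in KO2 and 3974, 3907 and 4128 in KO3, against 4538, 4644 and 4841 in WT. The groups did not overlap one another, with KO1 highest, then WT, KO3 and KO2. Log2 differences were 0.36 in KO1 (SE 0.05, adjusted p = 3.96e-05), -0.64 in KO2 (adjusted p = 1.83e-07) and -0.22 in KO3 (adjusted p = 0.00142). Mmp9, the other gelatinase (chr2:164940780-164955850, plus strand), had 102, 176 and 126 normalized counts in KO1, 50.4, 52.7 and 66.8 in KO2 and 28.0, 26.3 and 34.1 in KO3, against 107, 33.1 and 34.3 in WT. KO1 was high but overlapped WT through WT replicate 1, and log2 differences were 1.38 in KO1 (SE 0.38, adjusted p = 0.00859), 0.17 in KO2 (adjusted p = 0.714) and -0.74 in KO3 (adjusted p = 0.118). Without WT replicate 1 the KO1 difference was 1.93, and the KO2 difference passed (0.72, adjusted p = 0.022); without WT replicate 2 the KO3 difference passed (-1.03, adjusted p = 0.0491), as it did by DESeq2 (-0.97, adjusted p = 0.0395).

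Mmp11, stromelysin-3, a furin-activated MMP of stromal fibroblasts (chr10:75923222-75936496, minus strand), differed most between the clones. It had 399, 322 and 395 normalized counts in KO1, 62.5, 70.0 and 62.4 in KO2 and 1223, 1091 and 1357 in KO3, against 248, 297 and 252 in WT. KO3 was above every other library and KO2 below every other library. Log2 differences were 0.48 in KO1 (SE 0.12, adjusted p = 0.0051), -2.01 in KO2 (adjusted p = 3.28e-08) and 2.20 in KO3 (adjusted p = 1.4e-08); the KO1 call ended under quantile normalization (0.29, adjusted p = 0.0587). The KO3 level exceeded that of KO2 by a log2 difference of 4.21 (adjusted p = 9.97e-11), which was the largest clone-to-clone difference among the members with a mean of at least 50. Mmp19, an MMP of basement membrane and vessel wall (chr10:128790910-128800824, plus strand), had 915, 962 and 836 normalized counts in KO1, 575, 533 and 585 in KO2 and 555, 539.6 and 519.9 in KO3, against 263, 229.9 and 228 in WT. Every clone library was above 500 and every WT library below 270, with log2 differences of 1.91 in KO1 (SE 0.08, adjusted p = 2.33e-09), 1.23 in KO2 (adjusted p = 1.02e-07) and 1.16 in KO3 (adjusted p = 1.71e-07). Mmp19 shares 789 exonic bases with Tmem198b on the other strand. Tmem198b averaged 1082, 1295 and 939 normalized counts in KO1, KO2 and KO3, against 736 in WT. Its part in the Mmp19 counts was not tested.

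The remaining MMPs were scarce. Mmp28, or epilysin (chr11:83440768-83463071, minus strand), had 38.5, 42.2 and 36.4 normalized counts in KO1, 1.87, 1.92 and 6.15 in KO2 and 71.5, 75.5 and 82.0 in KO3, against 4.70, 1.04 and 9.03 in WT. KO1 and KO3 were above KO2 and WT, with log2 differences of 3.03 in KO1 (SE 0.51, adjusted p = 0.000322), -0.32 in KO2 (adjusted p = 0.611) and 3.98 in KO3 (adjusted p = 3.1e-05). Mmp28 passed the filter only through KO1 and KO3, so its being higher there was in part fixed. Mmp23, a membrane-anchored MMP, averaged 10.6 ± 3.75 normalized counts in KO1, 11.7 ± 4.10 in KO2 and 20.7 ± 2.92 in KO3, against 10.5 ± 9.39 in WT and was called in none of the clones, with log2 differences of 0.78 in KO1 (SE 0.85, adjusted p = 0.465), 0.91 in KO2 (adjusted p = 0.377) and 1.73 in KO3 (adjusted p = 0.105). Without WT replicate 3 its KO3 difference passed (2.50, adjusted p = 0.026). In the authors' deposited table the log2 fold changes of Mmp23 were -0.0061 in KO1, 0.057 in KO2 and 0.53 in KO3.

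**Figure D4:**
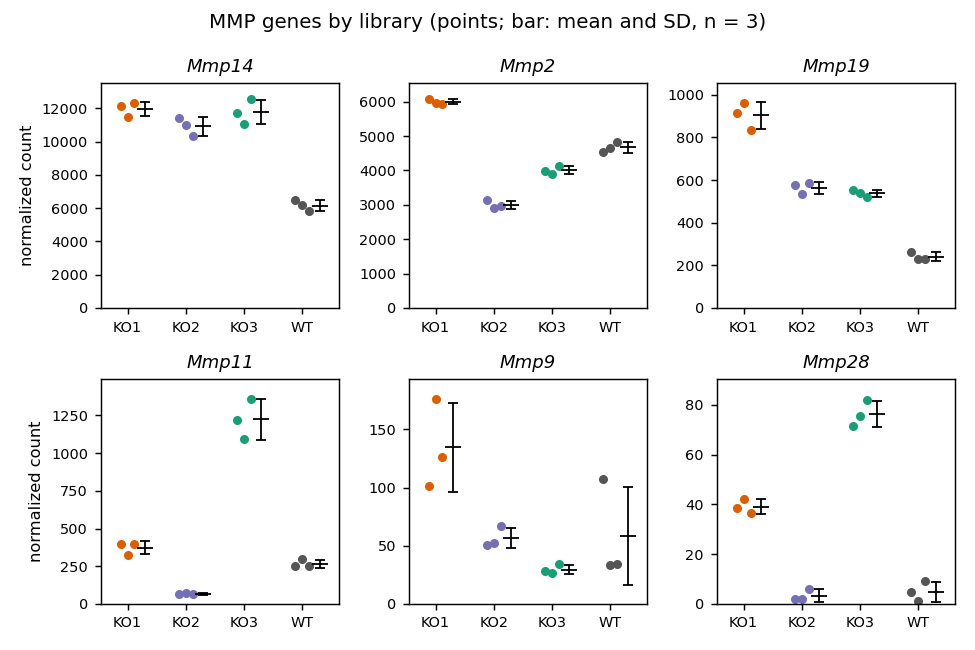
Normalized counts (y axis, linear from 0) of Mmp14, Mmp2, Mmp19, Mmp11, Mmp9 and Mmp28, with 1 point per library in KO1, KO2, KO3 and WT and the mean and SD beside them (n = 3). Mmp14 and Mmp19 lay higher in all 9 clone libraries than in WT, while Mmp11 lay at 1091 to 1357 in KO3 and 62.4 to 70.0 in KO2, against 248 to 297 in WT.

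The main sheddases were lower in the clones where they were called. Adam10, which cuts Notch receptors, cadherins and the amyloid precursor protein (chr9:70678997-70780229, plus strand), had 10109, 9902 and 9768 normalized counts in KO1, 6509, 6334 and 6917 in KO2 and 8884, 9143 and 8207 in KO3, against 13592, 10546 and 10435 in WT. KO2 was lowest and WT highest, and log2 differences were -0.20 in KO1 (SE 0.09, adjusted p = 0.0699), -0.80 in KO2 (adjusted p = 6.98e-06) and -0.39 in KO3 (adjusted p = 0.00248). The KO1 difference passed without WT replicate 2 (-0.26, adjusted p = 0.0389) or WT replicate 3 (-0.27, adjusted p = 0.0296). Adam17, the TNF-alpha converting enzyme that also releases EGF receptor ligands (chr12:21323509-21373632, minus strand), had 4772, 4806 and 4575 normalized counts in KO1, 5063, 5037 and 5288 in KO2 and 4324, 4339 and 4011 in KO3, against 5762, 4995 and 5221 in WT. Log2 differences were -0.17 in KO1 (SE 0.06, adjusted p = 0.0247), -0.052 in KO2 (adjusted p = 0.459) and -0.33 in KO3 (adjusted p = 0.000368), all under 0.4 in size. Its KO1 call ended without KO1 replicate 3 (adjusted p = 0.0898) and without WT replicate 1 (-0.11, adjusted p = 0.0677). It also ended under quantile normalization (-0.054, adjusted p = 0.323) and with KO1 and WT fitted alone (adjusted p = 0.0619), and its value became 0.01 with the median of neighbouring genes on the chromosome subtracted. With the same subtraction the KO3 value was -0.17 (adjusted p = 0.0685). Adam17 shares 311 exonic bases with Iah1 on the other strand, which averaged 617, 1144 and 776 normalized counts in KO1, KO2 and KO3, against 540.0 in WT.

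Adam19, a sheddase of neuregulins known from heart development (chr11:46055992-46147343, plus strand), changed far more. It had 4259, 4600 and 4489 normalized counts in KO1, 5401, 5296 and 5737 in KO2 and 3487, 3498 and 3582 in KO3, against 1155, 1071 and 948 in WT. The lowest clone library was more than 3 times the highest WT library, and log2 differences were 2.08 in KO1 (SE 0.07, adjusted p = 1.65e-10), 2.38 in KO2 (adjusted p = 5.45e-11) and 1.74 in KO3 (adjusted p = 6.23e-10). Adam12, another neuregulin- and HB-EGF-cutting ADAM of mesenchymal cells (chr7:133883199-134232146, minus strand), went in the opposite direction. It had 170.2, 179 and 142 normalized counts in KO1, 67.2, 88.2 and 65.1 in KO2 and 261, 275 and 239 in KO3, against 639, 413 and 389 in WT. No clone library reached the lowest WT library, and log2 differences were -1.52 in KO1 (SE 0.19, adjusted p = 2.56e-05), -2.67 in KO2 (adjusted p = 1.29e-07) and -0.86 in KO3 (adjusted p = 0.00188). Adam9, a widely expressed sheddase and the most abundant ADAM per kilobase in WT, averaged 10310 ± 237 normalized counts in KO1, 11408 ± 674 in KO2 and 10772 ± 693 in KO3, against 11831 ± 859 in WT. Its log2 differences were -0.20 in KO1 (SE 0.07, adjusted p = 0.026), -0.052 in KO2 (adjusted p = 0.523) and -0.13 in KO3 (adjusted p = 0.106), and the KO1 call ended without WT replicate 1 (-0.14, adjusted p = 0.075) or without any 1 of the KO1 libraries. It also ended under quantile normalization (-0.10, adjusted p = 0.123) and with the median of neighbouring genes subtracted (-0.069, adjusted p = 0.426). Adam15, a sheddase with an integrin-binding motif, had log2 differences of 0.54 in KO1 (SE 0.06, adjusted p = 2.02e-05), 0.037 in KO2 (adjusted p = 0.637) and 0.10 in KO3 (adjusted p = 0.189). With the median of neighbouring genes subtracted, Adam15 also passed in KO2 (0.26, adjusted p = 0.00533) and KO3 (0.33, adjusted p = 0.00132).

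Several ADAMs act less as enzymes than as adhesion or receptor proteins. Adam23, a neuronal ADAM without protease activity that binds LGI proteins and integrins (chr1:63445891-63596276, plus strand), had 7661, 7227 and 7540 normalized counts in KO1, 17433, 16454 and 17016 in KO2 and 5430, 5521 and 5636 in KO3, against 10972, 10225 and 10187 in WT. KO2 was above WT, and KO1 and KO3 were below it, with log2 differences of -0.48 in KO1 (SE 0.05, adjusted p = 3.13e-06), 0.70 in KO2 (adjusted p = 8.89e-08) and -0.92 in KO3 (adjusted p = 6.85e-09). Adam11, also a neuronal ADAM without protease activity (chr11:102761439-102780262, plus strand), had 138, 112 and 115 normalized counts in KO1, 309, 253 and 349.9 in KO2 and 191, 109 and 161 in KO3, against 132, 75.6 and 76.8 in WT. Every KO2 library was above every library of the other groups, and log2 differences were 0.40 in KO1 (SE 0.24, adjusted p = 0.188), 1.71 in KO2 (adjusted p = 6.18e-05) and 0.70 in KO3 (adjusted p = 0.0278). The KO3 call ended without KO3 replicate 1 (0.53, adjusted p = 0.117), KO3 replicate 3 (0.65, adjusted p = 0.0803), WT replicate 2 (0.57, adjusted p = 0.1) or WT replicate 3 (0.58, adjusted p = 0.0941), and the KO1 difference passed without WT replicate 1 (0.66, adjusted p = 0.0223).

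Of the weakly expressed ADAMs, Adam33, a mesenchymal ADAM known from airway fibroblasts and smooth muscle (chr2:131050591-131063814, minus strand), had 24.6, 48.5 and 52.1 normalized counts in KO1, 94.2, 142 and 97.6 in KO2 and 43.5, 50.0 and 34.1 in KO3, against 72.9, 90.1 and 104 in WT. KO1 and KO3 were below every WT library and KO2 overlapped WT, with log2 differences of -1.13 in KO1 (SE 0.28, adjusted p = 0.00521), 0.31 in KO2 (adjusted p = 0.369) and -1.05 in KO3 (adjusted p = 0.00761). Adam5, known from testis (chr8:24727093-24824369, minus strand), had 79.2, 70.7 and 63.9 normalized counts in KO1, 84.0, 90.1 and 89.7 in KO2 and 31.1, 32.5 and 28.8 in KO3, against 23.5, 11.4 and 13.5 in WT. Each clone library was above each WT library, and log2 differences were 2.13 in KO1 (SE 0.23, adjusted p = 9.2e-06), 2.44 in KO2 (adjusted p = 2.06e-06) and 0.95 in KO3 (adjusted p = 0.00417). Adam9 lies 125242 bases from Adam5, with Adam32, which did not pass, between them. Adam1a, Adam4 and Adam8 passed the filter and were called in none of the clones, with log2 differences between -0.36 (adjusted p = 0.231) for Adam8 and 0.79 (adjusted p = 0.0893) for Adam1a, both in KO3. Adam1a shares 4779 exonic bases on its own strand with a predicted gene, Gm42878, and 1805 with Mapkapk5, so its counts are uncertain. Mapkapk5 averaged 1397, 1351 and 1683 normalized counts in KO1, KO2 and KO3, against 1385 in WT. The KO3 difference of Adam1a passed without KO1 replicate 1 (adjusted p = 0.0356).

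**Figure D5:**
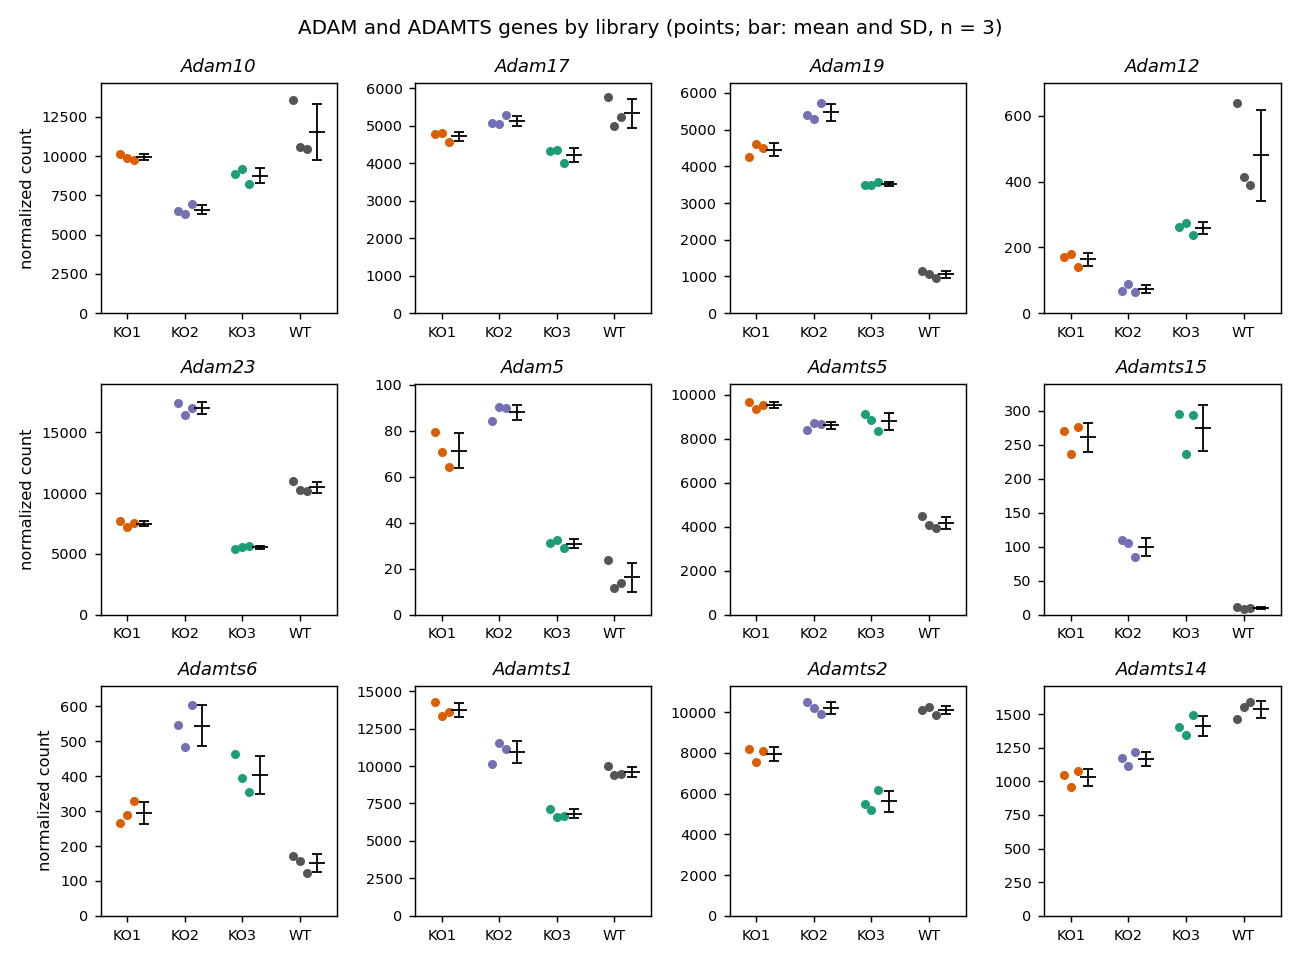
Normalized counts (y axis, linear from 0) of 12 ADAM and ADAMTS genes, with 1 point per library in KO1, KO2, KO3 and WT and the mean and SD beside them (n = 3). Adam19, Adamts5 and Adamts15 were higher in all 9 clone libraries than in WT and Adam12 was lower, while Adam10 was lowest in KO2.

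Among the ADAMTS enzymes that cut proteoglycans, Adamts5 and Adamts15 were higher in every clone. Adamts5, an aggrecan- and versican-cutting enzyme (chr16:85856173-85901828, minus strand), had 9677, 9363 and 9536 normalized counts in KO1, 8399, 8709 and 8672 in KO2 and 9129, 8861 and 8343 in KO3, against 4462, 4064 and 3939 in WT. The lowest clone library, at 8343, was above the highest WT library, at 4462, with log2 differences of 1.20 in KO1 (SE 0.05, adjusted p = 2.99e-09), 1.05 in KO2 (adjusted p = 8.61e-09) and 1.08 in KO3 (adjusted p = 5.66e-09). Adamts15, of the same functional group (chr9:30899155-30922452, minus strand), had 269.7, 236 and 276 normalized counts in KO1, 109, 105 and 84.4 in KO2 and 294, 236 and 293 in KO3, against 11.8, 8.28 and 9.93 in WT. WT was near the filter's limit of 10, every clone library was above 84, and log2 differences were 4.58 in KO1 (SE 0.17, adjusted p = 4.05e-10), 3.20 in KO2 (adjusted p = 9.39e-09) and 4.65 in KO3 (adjusted p = 3.26e-10). Adamts8, its neighbour at 20110 bases, did not pass.

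Adamts1 and Adamts4, which also cut aggrecan and versican, went in different directions among the clones. Adamts1, 53060 bases from Adamts5 on chromosome 16, averaged 13745 ± 461 normalized counts in KO1, 10942 ± 738 in KO2 and 6809 ± 303 in KO3, against 9612 ± 321 in WT, with log2 differences of 0.52 in KO1 (SE 0.06, adjusted p = 1.15e-05), 0.19 in KO2 (adjusted p = 0.0149) and -0.50 in KO3 (adjusted p = 1.33e-05). Its KO2 call ended without KO2 replicate 2 (0.14, adjusted p = 0.0737) and with KO2 and WT fitted alone (adjusted p = 0.0528). Adamts4 averaged 683 ± 61.8 normalized counts in KO1, 860.2 ± 37.2 in KO2 and 376 ± 16.6 in KO3, against 709.5 ± 18.1 in WT, with log2 differences of -0.059 in KO1 (SE 0.08, adjusted p = 0.555), 0.28 in KO2 (adjusted p = 0.00805) and -0.91 in KO3 (adjusted p = 7.71e-07). For both, KO3 was the lowest group. The versican gene Vcan, a substrate of these enzymes, averaged 32491 ± 573 normalized counts in KO1, 30070 ± 999 in KO2 and 24904 ± 782 in KO3, against 13208 ± 1229 in WT, and its log2 differences were 1.30 in KO1 (SE 0.06, adjusted p = 6.02e-09), 1.19 in KO2 (adjusted p = 1.12e-08) and 0.92 in KO3 (adjusted p = 1.13e-07). Of the 4 tested genes on the list of matrix substrates of ADAMTS enzymes, 1 was higher and 1 lower in KO1, 1 and 0 in KO2, and 1 and 2 in KO3, and the higher one was Vcan each time. Among all genes tested, 52.3%, 60.4% and 54.1% were called in KO1, KO2 and KO3. The neurocan gene Ncan averaged 398 ± 43.9 normalized counts in KO1, 792 ± 37.2 in KO2 and 1.76 ± 1.62 in KO3, against 887 ± 62.9 in WT, with log2 differences of -1.16 in KO1 (SE 0.38, adjusted p = 0.0224), -0.16 in KO2 (adjusted p = 0.735) and -8.56 in KO3 (adjusted p = 1.98e-09). The aggrecan gene Acan was scarce and was lower in KO3, at -1.61 (adjusted p = 0.00341) on the log2 scale, and Comp was called in none of the clones.

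The procollagen N-proteinases Adamts2 and Adamts14, which remove the amino-terminal propeptide of fibrillar collagens, were lower where they were called. Adamts2 averaged 7940 ± 335 normalized counts in KO1, 10205 ± 294 in KO2 and 5625 ± 506 in KO3, against 10085 ± 199 in WT, with log2 differences of -0.35 in KO1 (SE 0.06, adjusted p = 0.000509), 0.017 in KO2 (adjusted p = 0.835) and -0.85 in KO3 (adjusted p = 1.96e-07). Adamts14 averaged 1029 ± 61.1 normalized counts in KO1, 1166 ± 50.3 in KO2 and 1412 ± 74.6 in KO3, against 1534 ± 64.9 in WT, with log2 differences of -0.58 in KO1 (SE 0.07, adjusted p = 1.32e-05), -0.39 in KO2 (adjusted p = 0.000217) and -0.12 in KO3 (adjusted p = 0.146). With the median of neighbouring genes subtracted, Adamts14 also passed in KO3 (-0.47, adjusted p = 0.000177). Adamts3, the other member of this group, did not pass the filter.

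Among the other ADAMTS genes, Adamts6, a relative of Adamts10 that acts on fibrillin-rich microfibrils (chr13:104287835-104496695, plus strand), had 265, 288 and 329.5 normalized counts in KO1, 547, 484 and 603 in KO2 and 462, 394 and 354 in KO3, against 172, 158 and 124 in WT. All clone libraries were above all WT libraries, with log2 differences of 0.96 in KO1 (SE 0.15, adjusted p = 0.000143), 1.85 in KO2 (adjusted p = 3.81e-07) and 1.41 in KO3 (adjusted p = 4.71e-06). Adamts10 went the other way, with log2 differences of -0.37 in KO1 (SE 0.05, adjusted p = 9.57e-05), -0.32 in KO2 (adjusted p = 0.000202) and -0.77 in KO3 (adjusted p = 1.07e-07). Adamts7, which cuts the cartilage protein COMP, had log2 differences of 0.18 in KO1 (SE 0.10, adjusted p = 0.168), 0.38 in KO2 (adjusted p = 0.00653) and -0.97 in KO3 (adjusted p = 5.52e-06), and Adamts12, its closest relative, had 0.70 in KO1 (SE 0.09, adjusted p = 3.39e-05), 0.22 in KO2 (adjusted p = 0.0496) and 0.27 in KO3 (adjusted p = 0.0231). With the median of neighbouring genes subtracted, Adamts7 also passed in KO1 (0.52, adjusted p = 0.00497). Adamts7 shares 122 exonic bases with Tbc1d2b on the other strand, which averaged 1234, 1309 and 777 normalized counts in KO1, KO2 and KO3, against 2292 in WT. The Adamts12 call in KO2 ended under 15 of the alternatives, among them leaving out any KO1 or KO3 library, KO2 replicate 1 or 3, or WT replicate 2 or 3 (adjusted p = 0.0537 to 0.186). The call in KO3 ended under 5, among them leaving out KO3 replicate 1 or 2, or WT replicate 2 or 3 (adjusted p = 0.0667 to 0.0908). Adamts9 was at 13.9, 10.6 and 11.8 normalized counts in KO1, 0, 0.958 and 1.76 in KO2, and at 0 in every KO3 and WT library. Against a floor of 3 reads over the WT libraries it was at least 11.6-fold higher in KO1, a bound that covers counting error only. Its KO2 difference passed without KO2 replicate 1 (adjusted p = 0.0472). Adamts9 passed the filter only through KO1, so its being higher there was in part fixed.

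Set against each other, the clones differed in about as many members as they did from WT. Between KO2 and KO1, 9 members were higher and 14 lower in KO2, where 44.4% of all genes were called, 20.5% higher and 23.9% lower. Between KO3 and KO1, 4 were higher and 19 lower in KO3, where 43.6% of all genes were called, 20.3% higher and 23.4% lower. Between KO3 and KO2, 7 were higher and 17 lower in KO3, where 53.1% of all genes were called, 26.1% higher and 27.0% lower. The shares of called members that passed the filter were 65.7%, 65.7% and 68.6%. Those called with at least a 2-fold change numbered 3 higher and 6 lower for KO2 minus KO1, 1 and 7 for KO3 minus KO1, and 4 and 8 for KO3 minus KO2, where 9.94%, 10.9% and 12.5% of all genes did so. All 4 TIMPs were lower in KO3 than in KO1 and than in KO2. Relative to KO1, the KO3 log2 differences were -1.02 (adjusted p = 9.94e-07) for Timp1, -0.47 (adjusted p = 0.000377) for Timp2, -0.27 (adjusted p = 0.00324) for Timp3 and -2.17 (adjusted p = 0.0022) for Timp4. The Timp2 call between KO3 and KO2 is the 1 of these 8 that ended under an alternative, the subtraction of the neighbouring genes' median (-0.14, adjusted p = 0.181). Of the 11 ADAMTS genes that passed, 7 were lower in KO3 than in KO1 and 2 higher. Of the 7 MMPs, 5 were lower in KO2 than in KO1 and 0 higher. The lower genes here include Adamts9 and Mmp28, respectively. Adamts9 passed the filter only through KO1, and Mmp28 only through KO1 and KO3. Their being lower in the other clones was therefore in part fixed, also in the counts of all members above. Clones from single cells of 1 line also differ by descent, which cannot be told apart from Crls1 here.

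Furin, the convertase that removes the prodomain of Mmp14, Mmp11, ADAM and ADAMTS proenzymes, was higher in every clone. It averaged 635 ± 56.9 normalized counts in KO1, 686 ± 34.5 in KO2 and 451 ± 18.6 in KO3, against 135 ± 2.05 in WT (SD, n = 3 each), with log2 differences of 2.22 in KO1 (SE 0.08, adjusted p = 5.61e-10), 2.33 in KO2 (adjusted p = 3.87e-10) and 1.73 in KO3 (adjusted p = 4.21e-09). Of the 5 convertase genes tested, 2 were higher and 1 lower in KO1, 2 and 0 in KO2, and 2 and 2 in KO3. None of the other 4 was called in all 3 clones. Among all genes tested, 52.3%, 60.4% and 54.1% were called in KO1, KO2 and KO3.

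Plau and Plaur, of the plasminogen system that activates pro-MMPs outside the cell, were lower in every clone. Of 6 tested genes, 2 were higher and 3 lower in KO1, 1 and 4 in KO2, and 1 and 4 in KO3, with median log2 differences of -1.12, -1.80 and -1.43. The higher genes in KO1 include a gene that passed the filter only through KO1, so its being higher there was in part fixed. Among all genes tested, 52.3%, 60.4% and 54.1% were called in KO1, KO2 and KO3. Plau, the urokinase, averaged 499 ± 31.1 normalized counts in KO1, 456 ± 24.6 in KO2 and 404 ± 5.19 in KO3, against 1960 ± 53.8 in WT, with log2 differences of -1.97 in KO1 (SE 0.07, adjusted p = 2.89e-10), -2.10 in KO2 (adjusted p = 1.84e-10) and -2.28 in KO3 (adjusted p = 8.13e-11). Its receptor gene Plaur had log2 differences of -1.64 in KO1 (SE 0.11, adjusted p = 1.06e-07), -1.64 in KO2 (adjusted p = 8.42e-08) and -1.15 in KO3 (adjusted p = 2.2e-06). Plat, the tissue-type activator, went the other way, with log2 differences of 1.00 in KO1 (SE 0.06, adjusted p = 2.37e-08), 1.58 in KO2 (adjusted p = 3.84e-10) and 0.60 in KO3 (adjusted p = 2.21e-06).

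The partners that steer ADAM10 and ADAM17 moved in both directions. Of 9 tested genes, 4 were higher and 2 lower in KO1, 4 and 2 in KO2, and 2 and 3 in KO3. Such calls were about as common among all genes tested, at 52.3%, 60.4% and 54.1% in KO1, KO2 and KO3. Tspan14, a tetraspanin that carries ADAM10 to the surface, had log2 differences of 0.68 in KO1 (SE 0.07, adjusted p = 2.99e-06), 0.32 in KO2 (adjusted p = 0.00102) and -0.33 in KO3 (adjusted p = 0.00113), and Tspan33, of the same group, had -1.16 in KO1 (SE 0.30, adjusted p = 0.0064), -1.53 in KO2 (adjusted p = 0.000772) and -3.37 in KO3 (adjusted p = 1.26e-06). Tspan17 was higher in each clone, with log2 differences of 0.79 in KO1, 0.84 in KO2 and 0.49 in KO3, as was Pacs2, a sorting protein for ADAM17, with 0.83 in KO1, 1.16 in KO2 and 0.88 in KO3.

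Of 7 tested genes for other inhibitors and anchors, 4 were higher and 1 lower in KO1, 4 and 1 in KO2, and 1 and 3 in KO3. For this list and those below, the shares called of all genes tested were 52.3%, 60.4% and 54.1% in KO1, KO2 and KO3. Reck, a membrane-anchored inhibitor of MMPs, had log2 differences of 0.26 in KO1 (SE 0.07, adjusted p = 0.00667), 0.52 in KO2 (adjusted p = 2.74e-05) and -0.22 in KO3 (adjusted p = 0.0159). Lrp1, the receptor that clears MMPs and TIMPs from the medium, was higher in each clone, with 0.47 in KO1 (SE 0.10, adjusted p = 0.00172), 0.37 in KO2 (adjusted p = 0.00672) and 0.45 in KO3 (adjusted p = 0.00239), and Cd44, which anchors Mmp9 and Mmp14 at the surface, was lower, with -0.72 in KO1 (SE 0.10, adjusted p = 5.06e-05), -1.12 in KO2 (adjusted p = 7.48e-07) and -0.84 in KO3 (adjusted p = 1.06e-05). Of 3 tested genes on the list of astacins, the relatives that trim procollagen at its other end, 2 were called higher in KO1, 2 in KO2 and 2 in KO3, and 0 lower. Only Pcolce was among them in all 3 clones, with Mep1a in KO1 and KO3 and Bmp1 in KO2. Mep1a was under 10 normalized counts in every WT library, so its being higher was in part fixed by the filter. Pcolce, an enhancer of that trimming and not itself a protease, had log2 differences of 0.44 in KO1, 0.74 in KO2 and 0.64 in KO3. Of 4 tested ADAMTS-like genes, which resemble ADAMTS without the protease domain, Adamtsl5 was higher in each clone, with log2 differences of 0.91 in KO1 (SE 0.05, adjusted p = 2.77e-08), 1.06 in KO2 (adjusted p = 5.73e-09) and 1.45 in KO3 (adjusted p = 3.59e-10).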

How the data were processed

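Libraries were made from total RNA after ribosomal RNA removal, with random hexamer priming, per the labels' protocols. Cutadapt, Salmon 0.14.1 and DESeq2 1.24.0 are named for the build GRCm38 in the submitters' processing notes. The sources used here do not give their settings or whether the counting used strand. The authors deposited normalized counts, treated here as a signal. Within 0.02, 99.96% to 99.99% of each library's values are whole multiples of 1 step, so they are whole reads, which may be rounded estimates, divided by 1 size factor per library. The authors also deposited log2 fold changes and p-values from DESeq2 for each clone against WT, per the file headers, used as an alternative only.

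Of the 54392 identifiers, 54357 matched GENCODE M21. Log2(value + 1) of the 15073 genes with 10 or more in at least 3 libraries was fitted over all 4 groups with limma 3.58.1 in R 4.3.3 (trended prior variance, 8 residual degrees of freedom, two-sided, Benjamini-Hochberg threshold 0.05). The pseudocount generally shrinks differences of weakly expressed genes, but a single library at or near 0 can enlarge them. All 6 pairs of groups were compared. The fit was tested on simulated data. Levels per kilobase use the union of a gene's exons. The alternatives were pseudocounts of 0.5 and 5, no filter and a mean filter of 50, TMM and quantile normalization, edgeR 4.0.16 and DESeq2 1.42.0 on recovered reads, the authors' tables, only the groups compared, the replicate number as a block, subtraction of the median of 20 neighbouring genes on each side, and leaving out each library.

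Members and lists were chosen with earlier results of these data known. Values in every library are given for the TIMPs, Mmp2, Mmp14, Adam10 and Adam17, and for members with a mean of at least 50 called with a log2 difference of at least 1 in a clone; those of Adam23, Mmp28 and Adamts9 were added after seeing the data. From each related list, up to 4 genes with the smallest largest adjusted p are eligible to be named. Some genes are not reported here. The files held 0 columns of other samples.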

Additional observations from a re-analysis of the deposited data

Results flagged for a closer look

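Several members differed from WT in opposite directions in a pair of clones, and limma's test of the difference between those clones passed. Mmp11, higher than WT in KO1 and KO3 and lower in KO2, had a log2 difference of -2.50 for KO2 minus KO1 (adjusted p = 1.3e-08) and 4.21 for KO3 minus KO2 (adjusted p = 9.97e-11). Mmp2, higher than WT in KO1 only, had -1 for KO2 minus KO1 (adjusted p = 9.71e-09) and -0.58 for KO3 minus KO1 (adjusted p = 1.08e-06). Adam23, higher than WT in KO2 only, had 1.18 for KO2 minus KO1 (adjusted p = 2.72e-09) and -1.62 for KO3 minus KO2 (adjusted p = 1.06e-10).

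Adamts1, Adamts4 and Adamts7 were lower than WT in KO3 and higher in another clone. Adamts1 had a log2 difference of -1.01 for KO3 minus KO1 (adjusted p = 5.68e-08) and -0.68 for KO3 minus KO2 (adjusted p = 9.74e-07). Adamts4 had -1.19 (adjusted p = 9.73e-08) and Adamts7 had -1.35 (adjusted p = 3.66e-07) for KO3 minus KO2.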

How the results depend on the processing

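Over 12 alternatives, the count of members called against WT ran from 22 to 27 in KO1, 19 to 24 in KO2 and 23 to 27 in KO3, where the reported counts were 25, 22 and 25. With 1 library left out the ranges were 23 to 26, 21 to 23 and 23 to 26. Under every alternative of both kinds that gave a value, 28, 29 and 27 of the 35 members kept their side of the threshold in KO1, KO2 and KO3. Those of them that were called also kept their direction. Direction was compared only where the reported or the alternative value was called, so uncalled differences could change sign. Without WT replicate 1, for example, the Mmp23 difference in KO1 went from 0.78 to -0.57, not called either way. Subtracting the median of neighbouring genes changed the sign of 3 called differences, none of which was called after it. Adam17 in KO1 went from -0.17 to 0.0104 (adjusted p = 0.921 after the subtraction). Adamts5 for KO2 minus KO1 went from -0.15 to 0.088 (adjusted p = 0.304 after it). Adamts14 for KO3 minus KO2 went from 0.28 to -2e-04 (adjusted p = 0.998 after it). The cause was not tested. With the same subtraction these called differences from WT kept their direction and call and moved by over 1.5 times: Adam23 to -0.31 in KO1 and 1.12 in KO2, Adamts4 to 0.47 and Timp1 to -0.49 in KO2, Timp2 to 0.20 in KO2, Adamts7 to 0.71 in KO2 and -0.62 in KO3, and Adam10 to -0.17 and Mmp19 to 0.75 in KO3. Quantile normalization moved Adamts1 in KO2 to 0.35, and a pseudocount of 5 moved Adamts9 in KO1 to 1.77. Replicate numbers do not pair the samples by the labels, and deviations of same-numbered libraries correlated at -0.221 to 0.123, with 3 of 12 libraries closest to their own number. With the replicate number as a block, 25, 21 and 26 members were called in KO1, KO2 and KO3 against WT. Under it the Adamts12 call in KO2 ended (adjusted p = 0.0652) and Adam1a in KO3 passed (0.79, adjusted p = 0.0314). Quantile normalization moved no median of all genes by more than 0.1. Members below the filter were left out by choice, and a value of 0 there means not detected at this depth. The authors' deposited table calls 3 of them, Adamts13 in KO1 (1.64, adjusted p = 0.0409), Adamts16 in KO2 (2.34, adjusted p = 0.0212) and Adamts8 in KO3 (0.97, adjusted p = 0.03).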

Other observations

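Genes for growth factors and receptors that ADAM proteases shed were mixed. Of 15 tested, 4 were higher and 5 lower in KO1, 4 and 8 in KO2, and 5 and 8 in KO3, with median log2 differences of 0.025, -0.20 and -0.27. The higher genes include genes for which every WT library was under the filter's limit, so those calls were in part fixed. Among all genes tested, 52.3%, 60.4% and 54.1% were called in KO1, KO2 and KO3. Csf1, the macrophage growth factor, averaged 13807 ± 332 normalized counts in KO1, 9352 ± 1170 in KO2 and 9636 ± 498 in KO3, against 28884 ± 2967 in WT (SD, n = 3 each), with log2 differences of -1.06 in KO1 (SE 0.09, adjusted p = 1.06e-06), -1.63 in KO2 (adjusted p = 1.71e-08) and -1.58 in KO3 (adjusted p = 2.12e-08). Hbegf, an EGF receptor ligand, was also lower in each clone, with -1.31 in KO1 (SE 0.11, adjusted p = 6.55e-07), -1.70 in KO2 (adjusted p = 4.56e-08) and -0.67 in KO3 (adjusted p = 0.000191). Il6ra, the interleukin-6 receptor, was higher in each clone, with 1.18 in KO1 (SE 0.07, adjusted p = 5.88e-08), 0.49 in KO2 (adjusted p = 9.12e-05) and 1.19 in KO3 (adjusted p = 4.03e-08). Tnfrsf1b, a TNF receptor, was higher in KO1 and KO3 and lower in KO2, with 0.86 in KO1 (SE 0.08, adjusted p = 2.52e-06), -0.78 in KO2 (adjusted p = 3.81e-06) and 1.01 in KO3 (adjusted p = 4.55e-07).

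AP-1 and ETS factors, which bind the promoters of many MMP genes, were also mixed. Of 14 tested, 6 were higher and 6 lower in KO1, 7 and 6 in KO2, and 3 and 7 in KO3. Among all genes tested, 52.3%, 60.4% and 54.1% were called in KO1, KO2 and KO3. Etv4 averaged 123 ± 21.2 normalized counts in KO1, 13.5 ± 1.78 in KO2 and 76.6 ± 9.40 in KO3, against 997 ± 33.2 in WT, with log2 differences of -3.02 in KO1 (SE 0.16, adjusted p = 1.19e-08), -6.11 in KO2 (adjusted p = 3.07e-11) and -3.69 in KO3 (adjusted p = 1.48e-09), and its relative Etv1 had -2.0 in KO1 (SE 0.09, adjusted p = 3.19e-09), -1.53 in KO2 (adjusted p = 2.89e-08) and -2.47 in KO3 (adjusted p = 4.04e-10). Jun, an AP-1 subunit, was higher in each clone, with 0.88 in KO1 (SE 0.05, adjusted p = 3.41e-08), 0.54 in KO2 (adjusted p = 2.05e-06) and 0.73 in KO3 (adjusted p = 1.39e-07), as was Runx1, a factor that works with AP-1 and ETS proteins, with 1.27 in KO1 (SE 0.06, adjusted p = 3.07e-09), 0.78 in KO2 (adjusted p = 2.04e-07) and 0.54 in KO3 (adjusted p = 5.93e-06).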
